A study of Mus musculus with 12 samples.

Results

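The genes described here are those whose RNA level in cultured liver cells lay outside the range of both freshly isolated populations, above both or below both. The cultured cells are Diff. hepatocytes, mouse embryonic hepatoblasts that were differentiated in vitro. A gene was taken as a member when its 4 Diff. libraries lay all above or all below the 8 libraries of hepatoblasts and mature hepatocytes, in CPM, counts scaled to a common library size after TMM normalisation in edgeR. Of 53715 listed genes, 4030 met this rule, 2396 above and 1634 below. A total of 17779 genes had more than 10 counts in any library and were tested. They held 3721 of the members, and the other 309 members had too few counts for a test. The comparison asks which RNA levels of the cultured cells lie outside the range that the embryonic and the adult cells span.

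Poly(A) RNA of 12 libraries was sequenced, 4 biological replicates in each of 3 groups, all from the mouse strain C57BL/6JOlaHsd. Hepatoblasts were the Dlk1+ fraction of pooled livers of E14.5 embryos, taken by magnetic cell separation after enzymatic digestion and lysed at once. Diff. hepatocytes came from such Dlk1+ cells after 4 days on fibronectin in a differentiation medium with serum, insulin, transferrin, selenium, dexamethasone and Matrigel. Mature hepatocytes were isolated by collagenase perfusion from adult males of 8 to 12 weeks and also lysed at once. Both comparison groups were thus dissociated from tissue shortly before lysis, and the cultured cells had been dissociated days earlier. How they were taken up from the plate is not given in the sources used here. Culture on a coated plate, the components of its medium and the longer time since dissociation cannot be told apart, because all 4 Diff. libraries share them.

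As background, liver cells taken out of their tissue meet several changes at once. Spreading on a stiff plate loads actin stress fibres, and the transcriptional coactivators YAP and TAZ as well as serum response factor then raise genes of the cytoskeleton, matrix and adhesion. Dexamethasone, a synthetic glucocorticoid, acts through the glucocorticoid receptor. Immediate-early genes, among them the Fos and Jun subunits of the transcription factor AP-1, need no new protein synthesis to be induced and are known to rise within minutes of tissue digestion. Endothelial cells and Kupffer cells, the macrophages of the liver, are common companions of hepatocytes in fresh isolates.

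The libraries held between 19581551 and 25216977 counts on genes. Hepatoblast replicate 1 and Diff. hepatocytes replicate 1 stood apart in part of their genes. The former had the highest summed level of erythroid markers, 3353 CPM against 407 CPM in the lowest hepatoblast library, and of macrophage markers, 462 against 108 CPM. Diff. hepatocytes replicate 1 had the highest value of the 4 cultured libraries in 619 of the 1518 genes called higher (40.8%). It had the lowest value in 442 of them (29.1%). Each count over a gene list was repeated without either library and without both, and every count that moved by over 1.5 times was of at most 2 genes. With fewer libraries the rule on their position is easier to meet, which limits what a steady count shows. The summed level of 12 hepatocyte and hepatoblast markers was between 78055 and 90756 CPM in Diff. hepatocytes, 68317 to 115190 CPM in hepatoblasts and 124900 to 177100 CPM in mature hepatocytes. All 12 markers were detected in the cultured libraries. Levels are given per library in the order of replicates 1 to 4, and in bulk RNA fewer cells of a type and less RNA per cell cannot be told apart.

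The contrast of Diff. hepatocytes with the equal-weight average of both fresh groups was tested by the quasi-likelihood method of edgeR, with all 12 libraries in the model. Calls required a log2 fold change above 1 or below -1 together with an adjusted p (Benjamini-Hochberg) below 0.01. Of all tested genes, 2655 were called higher (14.9%) and 1565 lower (8.80%), and 11.8% lay above and 9.09% below the 8 other libraries whether called or not. Both conditions held for 1518 genes in the higher direction, 8.54% of all tested, and for 769 in the lower direction, 4.33%. Because the position of the libraries chose the members, these shares are a description. They are the background for each list count that follows, where higher and lower mean called and separated. The separation and the adjusted p of a single member are no independent support, since both conditions chose it.

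The members lay far from the nearer of the 2 fresh groups in many cases. The log2 fold change against the nearer group exceeded 1 for 1191 of the 1518 higher and 537 of the 769 lower genes, and it exceeded 3 for 224 and 70. Among the higher members the fresh groups themselves were called different for 628 genes. Hepatoblasts lay above mature hepatocytes in 501 of these (33% of the higher members) and below them in 127 (8.37%). Among the lower members those numbers were 101 (13.1%) and 250 (32.5%), and over all tested genes 24.5% and 20%. The fresh groups were not called different for 58.6% of the higher members, 54.4% of the lower members and 55.5% of all tested genes. Of the higher members 231 were long noncoding RNA genes (15.2%), compared with 5.59% of the lower members and 9.35% of all tested genes. The filter bears on these shares, since 382 higher members passed it through the cultured libraries alone. Likewise 206 lower members passed it through the fresh libraries alone. The part of such genes in the noncoding share was not tested. At the border of the rule, the lowest Diff. library was 1.0052 times the highest other library for Gramd1c, just inside, and 0.9993 times for Rgs2, just outside. On the lower side the lowest other library was 1.003 times the highest Diff. library for Cyp26a1, inside, and 0.9999 times for Tyms, outside.

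**Figure D1:**
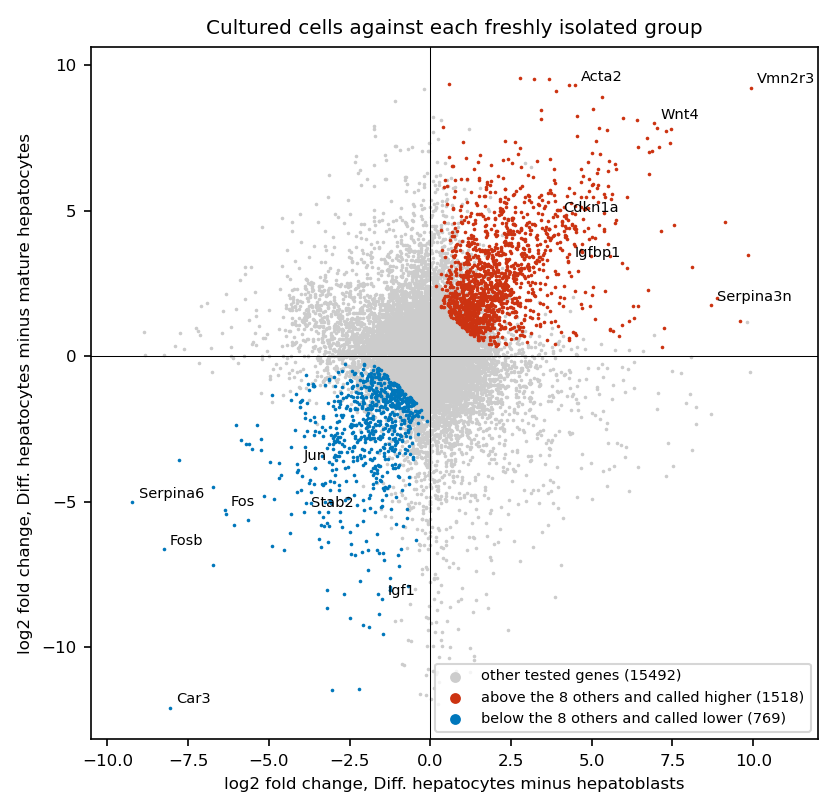
Each point is a tested gene, with its log2 fold change of Diff. hepatocytes minus hepatoblasts on the x axis and of Diff. hepatocytes minus mature hepatocytes on the y axis. The 1518 members called higher (red) fill the upper right part and the 769 called lower (blue) the lower left part. Car3 lies at -8.06 and -12.08 and Wnt4 at 6.92 and 8.00. Both axes use the same Diff. libraries, so the slope of the cloud is not a result.

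By the rule of distance from the nearer group, the 15 protein-coding genes named first were Vmn2r3, Rasd2, Minar1, Fgfbp1, Serpinb9b, Tff3, Wnt4, Ankrd1, Sgpp2, Tnnt2, Myo16, Cemip, Cyp3a44, Sult2a1 and Bst1. Wnt4, a secreted Wnt ligand (ENSMUSG00000036856, chromosome 4 from 137277489 to 137299726 of GRCm38), measured 177, 195, 232 and 243 CPM in Diff. hepatocytes. The hepatoblast libraries held 1.26, 2.0, 1.78 and 1.59 CPM and the mature libraries 0.48, 0.834, 0.992 and 0.621 CPM. Each cultured library lay above the others, as the rule requires (log2 fold change 7.46 ± 0.14 (SE), edgeR adjusted p = 1.52e-12). Tff3, a trefoil peptide secreted by mucous epithelia (chromosome 17 from 31125306 to 31129646), was at 536, 840.5, 986 and 949.6 CPM in culture, 5.61, 4.3, 6.48 and 8.62 CPM in hepatoblasts and 1.65, 4.94, 5.31 and 2.05 CPM in mature hepatocytes (log2 fold change 7.44 ± 0.29 (SE), edgeR adjusted p = 4.44e-10). The highest fresh library of Tff3 was hepatoblast replicate 4, which by the rule each of the 4 cultures exceeds.

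The 15 lower genes named by the same rule were Car3, Nxpe2, Fosb, Lect2, Fos, Serpina6, Aqp1, Slc25a21, Alas2, S1pr1, Timd2, Stab2, Cdh5, Fcna and Jun, and they are described with their groups. Several of the higher genes were nearly silent in the fresh cells. Vmn2r3, which encodes a receptor of the vomeronasal family (chromosome 3 from 64257215 to 64289709), had 103, 69.1, 109.6 and 116 CPM in Diff. hepatocytes, while no fresh library held more than 2 counts. The same limit of 2 counts held for Minar1 and Serpinb9b, so no fold change is stated for these 3 genes. In culture Minar1 measured 15.3, 22.7, 16.8 and 20.8 CPM and Serpinb9b, an intracellular serpin, 31.5, 6.33, 10.3 and 10.7 CPM. Against hepatoblasts, the group with more counts, the log2 fold changes were 7.29 for Fgfbp1, a carrier of fibroblast growth factors, 6.42 for Cemip, which takes part in hyaluronan breakdown, and 6.71 for Tnnt2, the cardiac troponin T. Rasd2, Sgpp2 and Myo16 differed by 7.45, 6.77 and 6.42 on the same scale. Sult2a1, a sulfotransferase of steroids and bile acids, was at 54.6, 69.9, 59.5 and 42.9 CPM in culture and at most 1.72 CPM in a hepatoblast library. The mature libraries came from males only, so levels of Sult2a1 and Cyp3a44 in adult females were not measured. Vmn2r3, Serpinb9b, Cyp3a44 and Sult2a1 have close paralogs, and reads shared with these could be counted on either gene. Bst1 and Sgpp2 overlap Fbxl5 and Farsb on the opposite strand, and the strand setting of the counts is not given in the sources used here. Of the 1518 higher members, 382 had at most 10 counts in each of the 8 fresh libraries, and a fitted fold change at such counts depends on the prior count of 2 added in the fit.

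Of 30 tested actin cytoskeleton genes 10 were called higher (33.3%) and 0 lower, with a list median log2 fold change of 0.81 against -0.009 over all tested genes. Acta2, smooth muscle alpha-actin (ENSMUSG00000035783, chromosome 19 from 34241090 to 34255590), was at 382, 139, 276 and 148 CPM in Diff. hepatocytes. Hepatoblasts held 7.67, 10.03, 14.2 and 9.88 CPM and mature hepatocytes 0.137, 0.321, 0.467 and 0.186 CPM. The lowest culture was thus far above the highest hepatoblast library, and the log2 fold change against hepatoblasts was 4.48 ± 0.33 (SE). Tpm1, a tropomyosin that lines actin filaments, had 352, 173, 260.3 and 179 CPM in culture, 101, 109, 111 and 102 CPM in hepatoblasts and 29.6, 35.4, 40.8 and 37.6 CPM in mature hepatocytes (log2 fold change 1.97 ± 0.16 (SE), edgeR adjusted p = 3.17e-07). Myl9, the light chain of nonmuscle and smooth muscle myosin, had 55.5, 31.7, 51.2 and 28.4 CPM against 8.06, 7.88, 10.4 and 7.19 CPM and 0.617, 0.706, 0.817 and 0.621 CPM (log2 fold change 4.02 ± 0.19 (SE), edgeR adjusted p = 1.81e-09). The other called genes were Acta1, Cnn1, Cnn2, Tagln, Tpm2, Tpm4 and Flna. Myh9, Vcl and Zyx also lay above all 8 libraries but with log2 fold changes of 0.57, 0.89 and 0.70, under the threshold. The ubiquitous actins Actb and Actg1 lay among the fresh libraries. Tagln overlaps Pcsk7 on the opposite strand.

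The promoters of some of these genes hold the CArG box, the binding letters of serum response factor, and they are shown because the same box stands in a gene that moved the other way. RefSeq promoter windows of 300 bases around the start were found for 12350 of the 17779 tested genes. A CArG box, searched on both strands, was present in 6 of 27 actin genes with a window (22.2%), in 3% of the higher members, 1.22% of the lower members and 1.6% of all tested genes with a window. Below are the 250 bases before the start, with the box in capitals, for 2 higher genes and for Zfp36, an immediate-early gene that was lower. The windows are chr2:156775214-156775463 (plus strand) for Myl9, chr10:79988350-79988599 (plus) for Cnn2 and chr7:28379229-28379478 (minus) for Zfp36, all in GRCm38.p6.
Myl9: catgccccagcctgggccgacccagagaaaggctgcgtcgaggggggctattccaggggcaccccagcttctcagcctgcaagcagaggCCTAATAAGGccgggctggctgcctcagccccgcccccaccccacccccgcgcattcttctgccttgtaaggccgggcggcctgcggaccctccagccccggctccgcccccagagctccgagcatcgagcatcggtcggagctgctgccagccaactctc
Cnn2: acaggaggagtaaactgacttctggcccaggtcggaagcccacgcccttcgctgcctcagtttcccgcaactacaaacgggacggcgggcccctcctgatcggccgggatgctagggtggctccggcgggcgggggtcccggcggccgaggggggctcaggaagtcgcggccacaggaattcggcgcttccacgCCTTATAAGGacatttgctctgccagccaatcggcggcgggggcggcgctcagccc
Zfp36: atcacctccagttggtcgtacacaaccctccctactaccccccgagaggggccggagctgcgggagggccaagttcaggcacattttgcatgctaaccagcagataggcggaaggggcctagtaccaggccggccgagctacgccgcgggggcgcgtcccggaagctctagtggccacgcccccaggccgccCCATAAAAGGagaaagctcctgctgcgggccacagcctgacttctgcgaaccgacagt
The box began 161 bases before the start in Myl9, 56 in Cnn2 and 58 in Zfp36. A match of letters is a description of the sequence and no evidence that the factor was bound.

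YAP/TAZ targets had the highest share of higher genes among the pathway lists, 12 of 21 (57.1%) with 1 lower and a list median of 1.24 on the log2 scale. Ccn2, a matricellular protein and a standard readout of YAP activity (ENSMUSG00000019997, chromosome 10 from 24595442 to 24598683), was at 99.7, 27.6, 48 and 31.8 CPM in culture. It was at 1.32, 1.79, 1.65 and 1.16 CPM in hepatoblasts and 1.44, 0.578, 0.642 and 0.435 CPM in mature hepatocytes (log2 fold change 5.49 ± 0.34 (SE), edgeR adjusted p = 2.42e-08). Ankrd1, another target, had 66.8, 17.3, 33 and 22.1 CPM in culture and at most 0.48 CPM in any fresh library. Tead1, the DNA-binding partner of YAP, was called with a log2 fold change of 2.28 and Crim1 with 2.17. Also higher were Amotl2, Ajuba, F3, Lats2, Ptpn14, Nt5e, Igfbp3 and Tgfb2. Ccn1, of the same protein family as Ccn2, was not a member and measured 116, 40.2, 62.7 and 46.9 CPM in culture, 68.1, 115, 100.3 and 80.3 CPM in hepatoblasts and 152, 88.9, 140.2 and 117 CPM in mature hepatocytes and overlapped both (log2 fold change -0.68, edgeR adjusted p = 0.0405). The gene called lower was Nuak2, a kinase of the AMPK family.

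Matrix genes were called higher in 15 of 36 cases (41.7%) and lower in 0, and the log2 fold change of the list had a median of 2.42. Col4a1, a chain of basement membrane collagen, was at 909, 389.5, 627 and 466 CPM in culture, 102, 104, 145 and 119.6 CPM in hepatoblasts and 36.5, 27, 48.2 and 17.3 CPM in mature hepatocytes (log2 fold change 3.28 ± 0.25 (SE), edgeR adjusted p = 1.69e-07). Lox, which crosslinks collagen, had 146, 67.1, 94.7 and 56.7 CPM in culture against 4.55, 5.28, 7.61 and 6.76 CPM in hepatoblasts, and mature libraries held at most 3 counts of it. Fn1, fibronectin, was 6667, 6836, 5824 and 6124 CPM against 2159.7, 2887, 3219 and 3539 CPM and 2428, 2566, 2651 and 2928 CPM, with a smaller difference (log2 fold change 1.19 ± 0.12 (SE), edgeR adjusted p = 3.03e-06). Genes of plasminogen activation were part of this group, with log2 fold changes of 2.5 for Plau, the plasminogen activator urokinase, 4.16 for its receptor Plaur and 4.58 for the tissue-type activator Plat. Another 12 matrix genes were called higher without lying above all 8 fresh libraries. Of these, Nid1, Col6a1 and Mmp2 had lower means in culture than in hepatoblasts, and the others had higher ones. Nid1, for example, was at 220 CPM in hepatoblasts, 141 CPM in culture and 10.8 CPM in mature hepatocytes. The fibrillar collagens Col1a1, Col1a2 and Col3a1 did not meet the rule, since hepatoblast libraries reached into the range of the cultured ones. Col1a1, for example, was at 1183, 484, 714 and 396 CPM in culture and 221, 246, 426 and 306 CPM in hepatoblasts.

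Adhesion genes and annexins followed. Integrin and focal adhesion genes were higher in 8 of 27 cases (29.6%), among them Itga3, Itgav and Cav1, the coat protein of caveolae, with log2 fold changes of 2.43, 1.06 and 3.18. Itgav lost its call without Diff. hepatocytes replicate 1 or without mature replicate 2. Annexins and S100 proteins, families that bind calcium, were higher in 8 of 19 cases (42.1%) and lower in 1. S100a6 measured 146, 41.9, 74 and 58.5 CPM in culture, 2.23, 2.45, 1.81 and 1.69 CPM in hepatoblasts and 6.17, 2.25, 2.98 and 2.42 CPM in mature hepatocytes (log2 fold change 4.87 ± 0.31 (SE), edgeR adjusted p = 3.70e-08). The lower one was S100a16, at -1.46 ± 0.13. Of the TGF-beta and BMP list 3 of 24 were higher, the ligands Tgfb2 and Tgfb3 and the latency protein Ltbp1.

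These groups did not vary evenly among the cultures. Diff. hepatocytes replicate 1 was the highest of the 4 cultured libraries in 10 of the 10 higher actin genes, 8 of 8 adhesion genes, 8 of 8 annexins and S100 proteins, 13 of 15 matrix genes and 11 of 12 YAP/TAZ targets. The median ratio of replicate 1 to the mean of the other 3 cultures was 1.96 in the actin list, 1.97 in matrix, 2.08 in annexins and S100 proteins and 1.24 in YAP/TAZ targets. In the amino acid response list, described below, the same library was highest in 0 of 7 genes, with a median ratio of 1.01. Without that library 10 actin genes, 7 adhesion genes, 7 annexins and S100 proteins, 15 matrix genes and 12 YAP/TAZ targets were called higher. The separation is easier to meet with fewer libraries. Apart from the filter and shifts of the scaling, leaving a library out can lose a member only by fold change or adjusted p. Mesenchymal markers went both ways and overlapped with hepatoblasts in their sum. Their summed level was 1463 to 3369 CPM in Diff. hepatocytes, 1395 to 2408 CPM in hepatoblasts and 84.3 to 119.7 CPM in mature hepatocytes, and 4 of 14 were called higher, Des, Vim, Lum and Acta2 (7 without hepatoblast replicate 3, and 2 either with library totals or with at least 10 counts in every sample). The stellate cell markers Lrat and Ngfr were called lower, with Ngfr at 0.0432, 0.172, 0 and 0.0493 CPM in culture and 4.84, 6.36, 9.29 and 7.09 CPM in hepatoblasts. The part of mesenchymal cells in the structural genes was not tested.

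**Figure D2:**
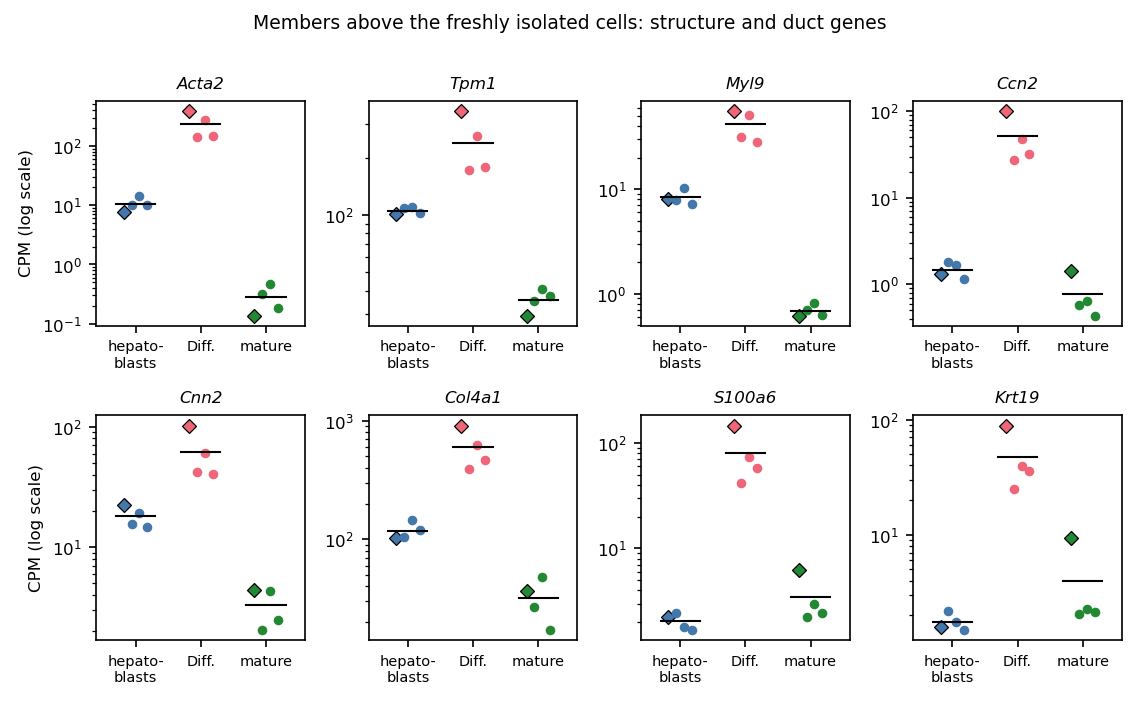
CPM on a log scale for 8 members of the higher group in hepatoblasts (blue), Diff. hepatocytes (red) and mature hepatocytes (green). Each point is a library, the diamond is replicate 1 of its group and the bar is the mean of 4 libraries. In each gene the 4 cultured libraries lie above all others, and replicate 1 is the highest of the cultured ones.

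Markers of bile duct cells were higher in 6 of 11 cases (54.5%), with a list median of 3.67 on the log2 scale, and the transcription factor Sox9 was not among them. Keratin 19, an intermediate filament protein of ducts (Krt19, ENSMUSG00000020911, chromosome 11 from 100140810 to 100148665), had 88.9, 24.8, 39.5 and 35.9 CPM in Diff. hepatocytes. Its fresh levels were 1.58, 2.18, 1.75 and 1.49 CPM in hepatoblasts and 9.33, 2.05, 2.28 and 2.11 CPM in mature hepatocytes (log2 fold change 4.13 ± 0.39 (SE), edgeR adjusted p = 1.42e-06). Krt7 was at 90.2, 20.6, 32.4 and 24.5 CPM in culture with a log2 fold change of 5.33 ± 0.40, Krt23 at 54.9, 56.7, 59.9 and 52 CPM with 4.53 ± 0.29 and the adhesion molecule Epcam at 16.5, 9.13, 10.5 and 9.56 CPM with 3.94 ± 0.24. The claudins Cldn4 and Cldn7, which seal tight junctions, completed the 6. Cldn4 measured 72.8, 21.3, 40.1 and 30.2 CPM in culture and 0.709, 1.13, 1.17 and 0.795 CPM in hepatoblasts, and 0 counts in each mature library. A count of 0 allows up to 3 counts, so the cultured level was at least 216-fold higher than in mature hepatocytes. Sox9, a transcription factor of duct cells, stood at 5.45, 4.56, 4.75 and 4.29 CPM in culture, 3.22, 5.52, 6.02 and 4.14 CPM in hepatoblasts and 16.3, 4.94, 7.41 and 7.57 CPM in mature hepatocytes and was not called (edgeR adjusted p = 0.174). The summed level of the marker list was 197 to 423 CPM in Diff. hepatocytes, 49.0 to 55.7 CPM in hepatoblasts and 51.0 to 84.3 CPM in mature hepatocytes. According to the authors, the Dlk1+ fraction at E14.5 also includes Sox9-positive cells, and duct cells form cysts in their culture system. The part of duct cells in these markers was not tested.

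Of 38 tested junction and polarity genes 7 were higher (18.4%) and 1 was lower. The number higher was 11 without hepatoblast replicate 4. Besides Cldn4, Cldn6 and Cldn7 the higher ones were Patj, Marveld2, Marveld3 and Mal2. Marveld3, a tight junction protein, was at 28.1, 27.9, 27.5 and 23.1 CPM in culture, 0.0967, 0.0896, 0.0971 and 0.133 CPM in hepatoblasts and 1.23, 1.28, 1.11 and 1.49 CPM in mature hepatocytes. It exceeded the adult cells by 4.29 ± 0.14 on the log2 scale. Tjp1 and Ocln, the genes of ZO-1 and occludin, lay above all 8 libraries with log2 fold changes of 0.99 and 0.97, just under the threshold. The lower gene was Anpep, which encodes the apical peptidase CD13. It measured 46.9, 58.9, 61.3 and 66.2 CPM in culture, 133, 194, 227 and 231 CPM in hepatoblasts and 163, 199.8, 168 and 214 CPM in mature hepatocytes (log2 fold change -1.71 ± 0.16 (SE), edgeR adjusted p = 1.06e-06). As the rule requires of a lower gene, all 8 fresh libraries held more Anpep RNA than any culture.

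Acute-phase proteins, which the liver secretes in inflammation and under glucocorticoids, were called higher in 13 of 25 cases (52%), with 1 lower and a median log2 fold change of 1.95. Lcn2, a siderophore-binding lipocalin (ENSMUSG00000026822, chromosome 2 from 32384633 to 32388252), was at 1387, 416, 903 and 607 CPM in culture. It was at 23.5, 12.7, 15.2 and 20.02 CPM in hepatoblasts and 3.91, 19, 5.49 and 3.04 CPM in mature hepatocytes (log2 fold change 6.12 ± 0.44 (SE), edgeR adjusted p = 1.02e-07). Haptoglobin, Hp, which binds free hemoglobin, had 8604, 8545, 8780.1 and 7577 CPM in culture against 56.7, 43.7, 61.2 and 61.2 CPM in hepatoblasts and 3766, 5954, 4145 and 3363 CPM in mature hepatocytes. Its cultured level lay beyond the adult one by 0.96 ± 0.18 on the log2 scale. Lbp, the lipopolysaccharide binding protein, was at a similar level in both fresh groups, 92.1, 102, 136 and 151 CPM and 115, 95.2, 95.9 and 83.1 CPM, and was 697, 736, 738 and 718 CPM in culture (log2 fold change 2.74 ± 0.12 (SE), edgeR adjusted p = 1.56e-09). The 3 fibrinogen chains Fga, Fgb and Fgg exceeded mature hepatocytes by 0.68, 0.99 and 0.43 on the log2 scale. Other genes of the list that rose were Saa3, Hpx, Cp, Apcs, Itih3, Serpina3n and Il1rn. Saa1, another serum amyloid, did not follow, with 1.12, 0.344, 0.311 and 0.296 CPM in culture, 0.258, 0.269, 0.356 and 0.365 CPM in hepatoblasts and 60.3, 789, 82.3 and 23.3 CPM in mature hepatocytes. Saa4 was the lower one, at -1.87 ± 0.21.

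Targets of the glucocorticoid receptor rose in 6 of 20 cases (30%) and fell in 2. The higher ones were Fkbp5, Zbtb16, Sgk1, Igfbp1, Cebpd and Ddit4. Fkbp5, a cochaperone that limits the receptor's own activity, was at 279, 232, 284 and 284 CPM in culture, 67.7, 87.1, 94.3 and 98.2 CPM in hepatoblasts and 50.6, 78.7, 56 and 39.4 CPM in mature hepatocytes (log2 fold change 1.95 ± 0.15 (SE), edgeR adjusted p = 1.78e-07). Sgk1, a kinase that regulates ion transport, was at 198, 148, 196 and 196 CPM against 32.3, 44.5, 37.4 and 27.4 CPM and 37.6, 33.7, 33.6 and 30.3 CPM (log2 fold change 2.41 ± 0.12 (SE), edgeR adjusted p = 3.26e-09). The lower genes of the list were Dusp1, which is also an immediate-early gene, and Glul, glutamine synthetase. The full palindrome of the glucocorticoid response element, AGAACA and TGTTCT with 3 bases between them, was found in the promoter windows of 2 genes, Sgk1 and Acnat2, which is 0.0162% of those with a window. The Sgk1 promoter is shown because this gene belongs to the list and rose. The element, in capitals, starts 189 bases before the transcription start at chr10:21993640-21993889 (plus strand, GRCm38.p6).
Sgk1: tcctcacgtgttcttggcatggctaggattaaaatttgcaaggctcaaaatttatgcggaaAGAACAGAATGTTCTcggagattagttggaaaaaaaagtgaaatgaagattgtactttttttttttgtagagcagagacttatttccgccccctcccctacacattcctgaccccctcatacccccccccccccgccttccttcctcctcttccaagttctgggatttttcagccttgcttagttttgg

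Genes of the insulin-like growth factor (IGF) axis went both ways, with 3 of 17 higher and 4 lower. Igfbp1, a secreted IGF-binding protein (ENSMUSG00000020429, chromosome 11 from 7197782 to 7202546), was at 3904, 5452, 4838 and 5076 CPM in Diff. hepatocytes. It was at 181, 245, 268 and 308 CPM in hepatoblasts and 754, 468, 464 and 302 CPM in mature hepatocytes (log2 fold change 3.77 ± 0.20 (SE), edgeR adjusted p = 7.92e-09). Igfbp3 and Igfbp6 were also called higher, with log2 fold changes of 2.52 and 3.80. Igf1, the growth factor that the adult liver secretes under growth hormone (chromosome 10 from 87858265 to 87937042), measured 4.45, 3.19, 1.29 and 1.63 CPM in culture, 12.4, 4.84, 6.87 and 6.76 CPM in hepatoblasts and 945, 869, 911 and 862 CPM in mature hepatocytes. The cultures lay below the embryonic cells as well as the adult ones, with log2 fold changes of -1.51 ± 0.34 and -8.35 ± 0.41. Igfals, its partner in serum, and Socs2, a growth hormone target, showed log2 fold changes of -2.04 and -1.48 against hepatoblasts and -5.29 and -4.94 against mature hepatocytes. Igfbp5 was the fourth lower gene of 17 tested in the IGF list.

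Drug-response genes went beyond the adult level in some cases and stayed far below it in others. Of 16 targets of the aryl hydrocarbon receptor and of the xenobiotic receptors CAR and PXR, 5 were higher (31.2%) and 0 lower. Cyp2b10, a standard CAR target, was at 150.1, 226, 216 and 177 CPM in culture, 14.9, 3.66, 2.92 and 10.2 CPM in mature hepatocytes and 0.355, 0.209, 0.227 and 0.232 CPM in hepatoblasts, with a log2 fold change of 4.60 ± 0.41 against mature hepatocytes. Por, the electron donor of microsomal P450 enzymes, had a log2 fold change of 0.70 ± 0.24 against them, and Cyp3a13 one of 0.72 ± 0.13. Cyp1a1 and Cyp1b1 were the remaining higher ones. The other 11 targets did not lie outside the range of the fresh libraries. Of these 11, 2 were called higher and 4 lower by fold change and adjusted p alone. Among the 4, Cyp1a2 had a mean of 0.911 CPM in culture and 1019 CPM in mature hepatocytes, and Cyp2c29 0.765 and 1552 CPM. Their hepatoblast means were 0.561 and 0.275 CPM. Cyp3a11, one of the 2, had means of 355 CPM in culture and 3945 CPM in mature hepatocytes. Abcb1b, a P-glycoprotein that exports drugs, was at 31.9, 15.4, 22.7 and 24 CPM in culture, 0.871, 0.299, 0.291 and 0.199 CPM in hepatoblasts and 1.92, 3.08, 1.75 and 1.49 CPM in mature hepatocytes (log2 fold change 4.51 ± 0.28 (SE), edgeR adjusted p = 2.66e-08). With Abcb1a and Abcc4 it made up the 3 higher genes of 20 transporters.

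Genes of the amino acid response, targets of the transcription factor ATF4, were higher in 7 of 21 cases (33.3%), with 1 lower and a median log2 fold change of 1.88. Another 9 were called higher without lying above all 8 fresh libraries. Of these, Phgdh, Psat1, Psph, Slc7a5, Aldh18a1, Mthfd2 and Vldlr had lower means in culture than in hepatoblasts and still lower ones in mature hepatocytes. Phgdh, for example, was at 345 CPM in hepatoblasts, 75.9 CPM in culture and 0.806 CPM in mature hepatocytes. Asns was near its hepatoblast level, and Fgf21 lay between the fresh groups. A low adult level lowers the equal-weight average and so raises the fold change of such genes and the list median. Slc7a11, which imports cystine (chromosome 3 from 49892526 to 50443614), was at 34, 40.6, 27.9 and 33 CPM in culture and 2.03, 0.418, 0.55 and 0.265 CPM in hepatoblasts, and each mature library held at most 1 count. The log2 fold change against hepatoblasts was 5.24 ± 0.43. Trib3, a pseudokinase, was at 182, 130.4, 204 and 200.5 CPM in culture, 11.9, 3.61, 3.95 and 2.32 CPM in hepatoblasts and 16.5, 6.74, 5.19 and 13.3 CPM in mature hepatocytes (log2 fold change 4.56 ± 0.37 (SE), edgeR adjusted p = 3.09e-07). Nupr1, a stress-induced chromatin protein, was at 46, 29.7, 48 and 56.2 CPM against 1.68, 0.806, 2.2 and 1.69 CPM and 0.754, 1.03, 2.16 and 0.993 CPM (log2 fold change 4.91 ± 0.25 (SE), edgeR adjusted p = 4.58e-09). The remaining higher genes were Ddit3, which overlaps Mars on the opposite strand, Sesn2, Pck2 and Slc3a2, the heavy chain that pairs with Slc7a11. Gdf15, a stress hormone of the TGF-beta superfamily, went the other way, with 12.9, 13, 14.3 and 13.2 CPM in culture, 72.8, 99.3, 112 and 110.0 CPM in hepatoblasts and 242, 67.8, 175 and 95.8 CPM in mature hepatocytes (log2 fold change -3.15 ± 0.31 (SE), edgeR adjusted p = 1.92e-06). Genes of protein folding in the endoplasmic reticulum gave 0 higher and 0 lower of 19 tested at the same thresholds.

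The amino acid response element TGATGNAA was present, on either strand, in the promoter windows of 8 of the 19 list genes that had one (42.1%), against 2.93% of all tested genes with a window. The list was made of ATF4 targets, so its high share follows from that choice and is no result of these data. Over all members with a window, the element was in 3.9% of the higher and 2.78% of the lower ones. Of the 7 higher genes of the list 4 held it, Nupr1, Pck2, Slc7a11 and Trib3. Slc7a11 holds it on both strands, 66 and 47 bases before the start, and Nupr1 holds it 110 bases before the start. Their 250 upstream bases are given with the element in capitals, for chr3:50443614-50443863 (Slc7a11) and chr7:126625471-126625720 (Nupr1), both on the minus strand of GRCm38.p6.
Slc7a11: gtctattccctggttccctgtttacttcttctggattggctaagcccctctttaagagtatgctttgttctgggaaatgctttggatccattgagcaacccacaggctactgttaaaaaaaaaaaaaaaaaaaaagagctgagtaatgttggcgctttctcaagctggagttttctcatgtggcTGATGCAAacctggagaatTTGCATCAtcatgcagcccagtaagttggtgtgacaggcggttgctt
Nupr1: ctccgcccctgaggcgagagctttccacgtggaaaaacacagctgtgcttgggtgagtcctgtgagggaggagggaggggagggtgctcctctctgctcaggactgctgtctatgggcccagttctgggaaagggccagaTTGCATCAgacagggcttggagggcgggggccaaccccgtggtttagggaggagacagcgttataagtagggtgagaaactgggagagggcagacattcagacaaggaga
Gdf15 had a window without these letters, which says nothing about the factor outside that window.

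Targets of p53 and inhibitors of cyclin-dependent kinases were higher in 6 of 20 cases (30%) and lower in 3 (15%). Cdkn1a, the kinase inhibitor p21 (ENSMUSG00000023067, chromosome 17 from 29090976 to 29100727), was at 183, 190.0, 176 and 197 CPM in culture. Hepatoblasts held 14.51, 11.1, 12.1 and 11.3 CPM and mature hepatocytes 14.8, 1.73, 7.35 and 2.36 CPM (log2 fold change 4.37 ± 0.35 (SE), edgeR adjusted p = 2.87e-07). The 4 cultures were close to one another and far from both fresh groups. Zmat3 and Phlda3, both p53 targets, had log2 fold changes of 2.0 and 3.73, and Ccng1, Eda2r and the inhibitor Cdkn2b were also higher. Cdkn2c, Btg2 and Gdf15 were lower. Proliferation genes gave 0 members of 22 tested, while 12 of them were called lower without lying below all 8 fresh libraries. Mki67, for example, was at 1029, 533, 484 and 474 CPM in hepatoblasts, 42.2, 21.7, 16.8 and 18.2 CPM in culture and 4.8, 5.84, 5.66 and 3.29 CPM in mature hepatocytes, so the cultured level lay between those of the fresh groups.

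Among the pathway lists, immediate-early genes held the most lower members. Of 30 tested, 16 were lower (53.3%) against 4.33% of all tested genes, 1 was higher, and the median log2 fold change was -1.54. Fosb, a subunit of AP-1 (ENSMUSG00000003545, chromosome 7 from 19302696 to 19310051), was at 0.735, 0.344, 0.80 and 0.69 CPM in Diff. hepatocytes. The hepatoblast libraries held 170.5, 234, 278 and 204 CPM and the mature libraries 70.6, 52, 116 and 49 CPM (log2 fold change -7.44 ± 0.35 (SE), edgeR adjusted p = 2.04e-09). For Fos (ENSMUSG00000021250, chromosome 12 from 85473890 to 85477273) the levels were 6.7, 4.35, 3.55 and 3.6 CPM, 275, 397, 465 and 399 CPM and 210.0, 105, 213 and 197 CPM in the same order (log2 fold change -5.83 ± 0.29 (SE), edgeR adjusted p = 3.95e-09). By the rule every fresh library exceeds every culture in these genes, and here the margin was wide. Mature replicate 2 was the lowest of its group in Fos, Jun, Junb and Egr1.

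Other subunits and regulators of this response fell with them. Jun measured 42.3, 45.7, 38.7 and 36.8 CPM in culture, 549, 729, 839.8 and 749 CPM in hepatoblasts and 690.1, 319.5, 611 and 529 CPM in mature hepatocytes (log2 fold change -3.92 ± 0.21 (SE), edgeR adjusted p = 8.63e-09). Egr1, a zinc-finger transcription factor, was at 54.3, 66.4, 59.8 and 72.5 CPM against 364, 669, 733 and 644 CPM and 461, 239, 412 and 350.5 CPM (log2 fold change -2.89 ± 0.22 (SE), edgeR adjusted p = 2.06e-07). Zfp36, whose protein hastens the decay of messengers such as those of cytokines and whose promoter is printed above, was at 57.3, 65.5, 61.7 and 59 CPM against 371, 535, 564 and 504 CPM and 609, 415, 541 and 399.6 CPM (log2 fold change -3.01 ± 0.16 (SE), edgeR adjusted p = 5.51e-09). Socs3, an inhibitor of cytokine signaling through STAT3, was at 12.3, 6.93, 8.57 and 7.49 CPM in culture against 185, 322, 313 and 281 CPM in hepatoblasts and 108, 76.7, 73.1 and 186 CPM in mature hepatocytes. Its log2 fold changes were -4.95 ± 0.34 against hepatoblasts and -3.64 ± 0.32 against mature hepatocytes.

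The other lower genes of the list were Junb, Jund, Egr2, Ier2, Nr4a1, Nr4a2, Nr4a3, Btg2, Dusp1 and Csrnp1. Their log2 fold changes ranged from -4.77 for Nr4a1, an orphan nuclear receptor, to -1.46 for Jund. Dusp1, a phosphatase of MAP kinases that glucocorticoids are known to induce, was also lower, with 35.9, 27.8, 28.4 and 25 CPM in culture, 79.4, 47.5, 70.1 and 56.9 CPM in hepatoblasts and 278, 165, 337 and 334 CPM in mature hepatocytes. Junb overlaps Prdx2 and Dusp1 overlaps Ergic1 on the opposite strand. The higher gene was Fosl1, another AP-1 subunit, at 4.5, 1.21, 3.69 and 2.42 CPM in culture and at most 0.645 CPM in a fresh library, and it overlaps Ccdc85b. Not all genes of the response took part. Myc was at 54.1, 62, 63.1 and 60.4 CPM in culture, 37.8, 33.5, 31.2 and 25.3 CPM in hepatoblasts and 36.6, 106, 84.9 and 116 CPM in mature hepatocytes, within the range of the fresh libraries, and Klf6 lay between hepatoblasts and mature hepatocytes. Atf3 missed the rule because mature replicate 2, at 20.5 CPM, fell into the cultured range of 20.02 to 29.5 CPM. Recent digestion of the tissue and the absence of culture cannot be told apart in these genes, because the 8 fresh libraries share both.

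**Figure D3:**
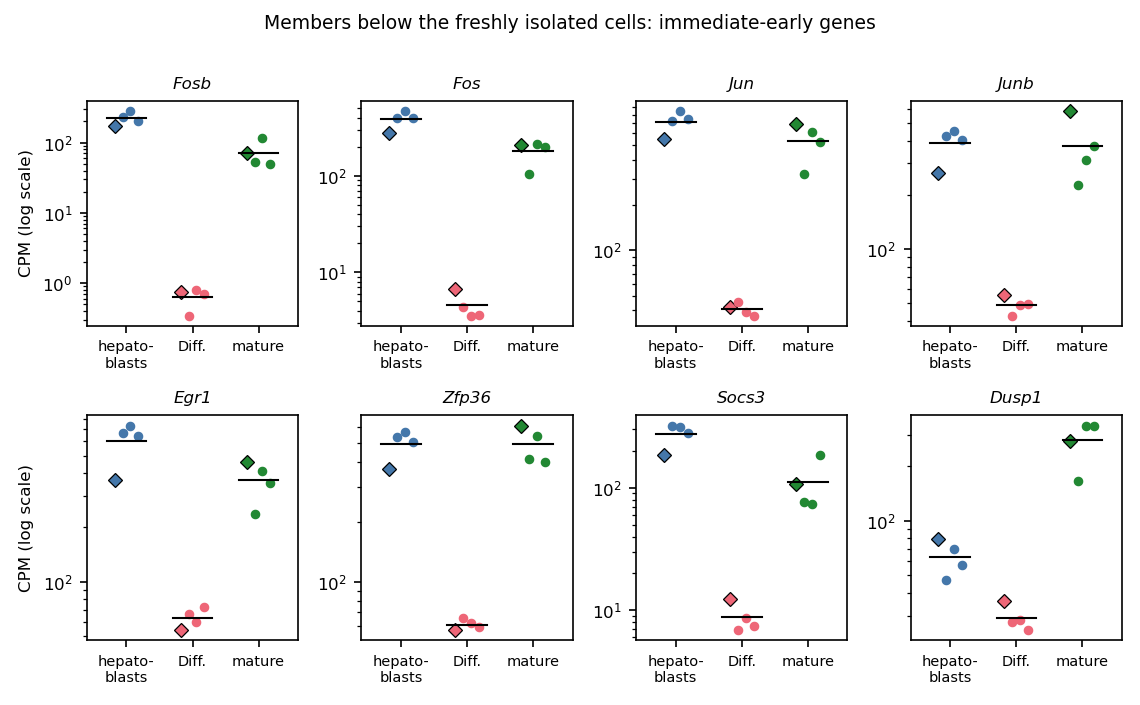
CPM on a log scale for 8 immediate-early genes in hepatoblasts (blue), Diff. hepatocytes (red) and mature hepatocytes (green). Each point is a library, the diamond is replicate 1 of its group and the bar is the mean of 4 libraries. The cultured libraries lie below all 8 others in each panel, from 0.344 to 0.80 CPM for Fosb and from 25.05 to 35.9 CPM for Dusp1.

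Among genes of the hepatocyte lineage, some were low in culture and high in both the embryonic and the adult cells. Car3, carbonic anhydrase 3 (ENSMUSG00000027559, chromosome 3 from 14863512 to 14872523), showed the largest distance from the nearer group among the lower genes of the naming rule. It was at 0.476, 0.474, 0.577 and 1.38 CPM in culture, 158, 158, 246 and 287 CPM in hepatoblasts and 3649.7, 3043, 3554 and 3548 CPM in mature hepatocytes (log2 fold change -10.07 ± 0.35 (SE), edgeR adjusted p = 1.96e-10). Serpina6, corticosteroid-binding globulin (chromosome 12 from 103646630 to 103657212), was at 7.31, 5.25, 8.48 and 8.33 CPM against 3153, 4405, 5106 and 5082 CPM and 150.4, 225, 154 and 431 CPM (log2 fold change -7.12 ± 0.39 (SE), edgeR adjusted p = 8.41e-09). Lect2, a secreted chemotactic protein of the liver, had 2.94, 0.689, 1.2 and 1.13 CPM in culture and similar levels in both fresh groups, 74.3, 111, 122 and 123 CPM in hepatoblasts and 83.7, 88.9, 78.3 and 102 CPM in mature hepatocytes. Timd2, a ferritin receptor, was likewise similar in both, with log2 fold changes of -4.08 against hepatoblasts and -3.92 against mature hepatocytes, and Slc25a21, a mitochondrial carrier, had -4.84 and -4.92. Nxpe2 was also on this list, and its hepatoblast levels, 48.8, 10.3, 5.5 and 5.17 CPM, were highest in replicate 1. Selenow, a selenoprotein, had 32.7, 21.1, 27.6 and 24.5 CPM in culture against 89.8, 86.6, 86.8 and 80.4 CPM and 81.4, 80.4, 77.2 and 88.2 CPM (log2 fold change -1.66 ± 0.11 (SE), edgeR adjusted p = 3.58e-08). Of the 12 hepatocyte markers 1 was a lower member, Ttr, which encodes the thyroxine carrier transthyretin, at -1.89 ± 0.16.

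Of 14 endothelial markers 9 were lower (64.3%) and 0 higher, with a median log2 fold change of -3.48. Stab2, a scavenger receptor of liver sinusoidal endothelium (ENSMUSG00000035459, chromosome 10 from 86841198 to 87008025), was at 1.3, 1.68, 0.844 and 1.28 CPM in culture, 41.7, 18.5, 9.91 and 10.6 CPM in hepatoblasts and 62.2, 34.4, 74.8 and 49.1 CPM in mature hepatocytes (log2 fold change -4.62 ± 0.47 (SE), edgeR adjusted p = 2.56e-06). Cdh5, the cadherin of endothelial junctions, was at 1.17, 1.64, 0.577 and 0.592 CPM against 29.6, 11, 8.55 and 8.88 CPM and 27.6, 12.8, 29.3 and 18.9 CPM (log2 fold change -4.05 ± 0.47 (SE), edgeR adjusted p = 7.86e-06). The hepatoblast values of both genes were highest in replicate 1. Without that library the rule is easier to meet, and the count was again 9. Kdr, a receptor of vascular endothelial growth factor, and Clec4g, a lectin of the sinusoid, had log2 fold changes of -4.60 and -4.96. The other 5 of the list did not meet the rule, and Stab1, another scavenger receptor, was at 92.5, 75.4, 46.7 and 55.9 CPM in culture, 70.3, 64.6, 64.2 and 73.1 CPM in hepatoblasts and 58, 35.9, 59.4 and 38.5 CPM in mature hepatocytes. The summed level of the list was 87.2 to 135 CPM in Diff. hepatocytes, 132 to 259 CPM in hepatoblasts and 234 to 397 CPM in mature hepatocytes, and none of the markers was at 0 in all 4 cultures. S1pr1, a receptor of sphingosine-1-phosphate that is outside the list, had a log2 fold change of -4.87 ± 0.20.

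Of 16 tested macrophage markers 4 were lower (25%), and the others were not called. Cd5l, a secreted scavenger receptor, was at 5.92, 2.71, 0.977 and 2.96 CPM in culture, 84.9, 18.4, 25.6 and 25.2 CPM in hepatoblasts and 54.3, 34.3, 63 and 32.2 CPM in mature hepatocytes (log2 fold change -3.70 ± 0.53 (SE), edgeR adjusted p = 5.38e-05). Clec4f, a lectin of Kupffer cells, was at 0.735, 0.215, 0.40 and 0.0986 CPM against 4.87, 1.13, 1.59 and 2.09 CPM and 62.6, 34.3, 69.7 and 33.9 CPM (log2 fold change -4.62 ± 0.51 (SE), edgeR adjusted p = 5.33e-06). Timd4, which recognizes dying cells, and Marco, a scavenger receptor, had log2 fold changes of -4.97 and -2.45. C1qa, a complement gene that macrophages share, was at 21.7, 7.23, 2.62 and 3.2 CPM in culture, 20.2, 4.33, 6.87 and 6.63 CPM in hepatoblasts and 23.2, 15.6, 23.7 and 14 CPM in mature hepatocytes, with overlap of all 3 groups (edgeR adjusted p = 0.342). Adgre1, which encodes F4/80, was not called either (edgeR adjusted p = 0.208). The summed list gave 34.9 to 249 CPM in Diff. hepatocytes, 108 to 462 CPM in hepatoblasts and 175 to 340 CPM in mature hepatocytes. Of 13 erythroid genes 2 were lower, Alas2 and Klf1, and Hba-a1, Hba-a2, Hbb-bs and Hbb-bt were not, because mature hepatocytes held less of them than the cultures. Klf1 lost its call when any 1 of the 4 cultured libraries was left out, and without replicate 1 the erythroid count was 1. Alas2, the erythroid form of the first enzyme of heme synthesis, was at 2.38, 0.99, 0.977 and 1.33 CPM in culture, 85.3, 19.7, 16.6 and 16 CPM in hepatoblasts and 177, 153, 144 and 130.4 CPM in mature hepatocytes, and it overlaps Apex2 on the opposite strand. The water channel Aqp1 and Fcna, a soluble lectin, also belonged to the lower genes named first, with log2 fold changes of -5.72 and -3.99.

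Interferon and MHC genes were lower in 11 of 36 cases (30.6%) and higher in 1, with a median log2 fold change of -1.49. Isg15, a ubiquitin-like protein induced by interferon (chromosome 4 from 156199424 to 156200818), was at 0.908, 0.775, 0.577 and 0.838 CPM in culture, 2.1, 1.37, 1.72 and 1.39 CPM in hepatoblasts and 15.1, 19.7, 14.53 and 9.93 CPM in mature hepatocytes (log2 fold change -2.56 ± 0.22 (SE), edgeR adjusted p = 5.81e-07). The log2 fold change against hepatoblasts was the smaller one, at -1.01. Irf9, Ifit1, Gbp2, Gbp3, Gbp7, Igtp and Psmb9 were lower as well, as were Cd74 and H2-Aa, which belong to antigen presentation by MHC class II. Cd74 was at most 0.562 CPM and H2-Aa at most 0.0865 CPM in a culture, and the part of macrophages and other immune cells in these genes was not tested. Another 13 genes of the list were called lower without lying below all 8 fresh libraries. Of these, Iigp1, B2m, Bst2, Psmb8, H2-Ab1 and H2-Eb1 had means in culture above those of hepatoblasts and below those of mature hepatocytes. Iigp1, for example, was at 1.43 CPM in hepatoblasts, 5.08 CPM in culture and 375 CPM in mature hepatocytes. The others had lower means in culture than in hepatoblasts. Usp18, a negative regulator of the response, was the gene of the list called higher, at 1.21 ± 0.21. Without hepatoblast replicate 1 and Diff. hepatocytes replicate 1 together 15 genes were lower. Lymphoid markers summed to at most 5.77 CPM in any library.

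The interferon-stimulated response element, searched as GAAA and GAAA with 2 bases between them, was present, on either strand, in promoter windows of 14 of 26 genes of this list that had one (53.8%) and of 3.63% of all tested genes with a window. This list was chosen for the interferon response and MHC, so its share follows in part from that choice. Over all members with a window, the element was in 6.61% of the lower and 3.9% of the higher ones. It was found in 6 of the 9 lower genes of the list with a window. Isg15 holds 3 overlapping copies, which begin 78, 72 and 66 bases before its start and are in capitals below (chr4:156200819-156201068, minus strand, GRCm38.p6).
Isg15: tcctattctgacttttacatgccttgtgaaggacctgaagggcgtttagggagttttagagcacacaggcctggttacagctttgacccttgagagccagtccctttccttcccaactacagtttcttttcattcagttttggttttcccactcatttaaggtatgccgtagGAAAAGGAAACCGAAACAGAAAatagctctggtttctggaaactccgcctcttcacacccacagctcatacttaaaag

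**Figure D4:**
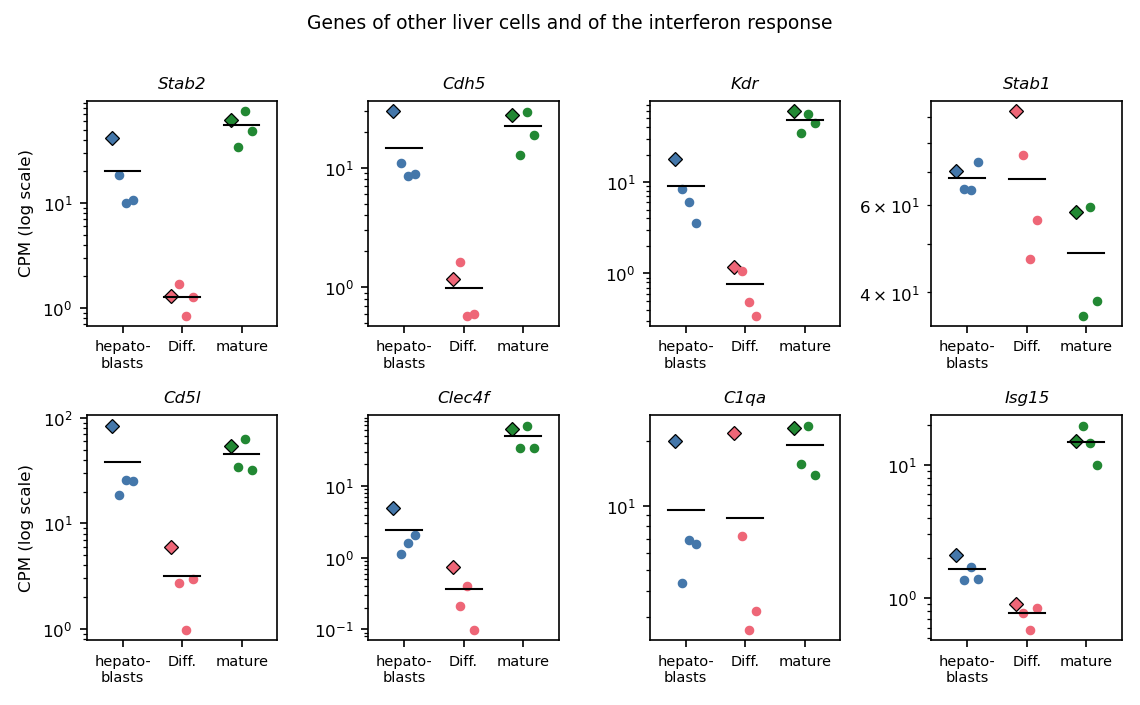
CPM on a log scale for endothelial genes (Stab2, Cdh5, Kdr, Stab1), macrophage genes (Cd5l, Clec4f, C1qa) and the interferon target Isg15. Each point is a library, the diamond is replicate 1 of its group and the bar is the mean of 4 libraries. Stab1 and C1qa overlap between the groups, and the other 6 genes lie below all fresh libraries in culture.

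Metabolic genes met the rule one by one rather than as lists. Among proteins of lipid droplets 3 of 20 were higher (15%), Plin4, Cidea and Cidec, and 1 was lower, Fitm1. Cidec, which fuses lipid droplets, was at 7.87, 13.9, 7.37 and 9.42 CPM in culture, 0.0967, 0.149, 0.13 and 0.0994 CPM in hepatoblasts and 6.24, 4.94, 4.55 and 4.84 CPM in mature hepatocytes, so the cultures lay far above the embryonic cells and 0.90 ± 0.20 above the adult ones on the log2 scale. Mlxipl, the glucose-responsive transcription factor ChREBP, was lower, at 34.6, 55.1, 48.1 and 51.1 CPM in culture against 74.8, 119.9, 116 and 138 CPM and 464, 546, 428 and 259.7 CPM (log2 fold change -2.21 ± 0.22 (SE), edgeR adjusted p = 2.28e-06). In glycolysis and the response to low oxygen 3 of 24 were higher, Pfkp, Adm and Ero1l. Pfkp, the platelet form of phosphofructokinase, was at 150.3, 199.6, 153 and 153 CPM in culture, 8.64, 4.27, 4.02 and 4.44 CPM in hepatoblasts and 3.29, 1.8, 2.33 and 1.8 CPM in mature hepatocytes. Pdk4, a kinase that turns off pyruvate dehydrogenase, was the single higher gene of 20 PPAR-alpha targets (log2 fold change 2.94 ± 0.33 (SE), edgeR adjusted p = 7.03e-06). Selenoproteins split, with the glutathione peroxidases Gpx2 and Gpx3 higher and Selenow, Selenoh and Selenoi lower, of 21 tested. Gpx3 was at 81.2, 36.8, 62.2 and 48 CPM in culture, 18, 19.5, 21.1 and 22.9 CPM in hepatoblasts and 0.617, 0.321, 0.642 and 0.31 CPM in mature hepatocytes (log2 fold change 4.08 ± 0.20 (SE), edgeR adjusted p = 2.96e-09).

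Set beside one another, the lists differed widely in their share of members. The bile duct, YAP/TAZ and acute-phase lists were higher in over 50% of their tested genes, and the endothelial and immediate-early lists lower in over 50%. Cholesterol synthesis gave 0 higher and 2 lower of 25, Mvk and Tm7sf2, and 1 lower when hepatoblast replicate 2, 3 or 4 was left out. Heat shock proteins gave 1 higher, Hspa4l, and 1 lower, Hspa1b, of 18. Genes of the unfolded protein response and of proliferation gave 0 members, as did the 7 tested genes encoded in the mitochondrial genome. Without hepatoblast replicate 1 or Diff. hepatocytes replicate 1, singly or together, the small counts that moved by over 1.5 times were those of lower genes in the YAP/TAZ list (1 to 2), in adhesion (0 to 1), among hepatocyte markers (1 to 2), drug-response genes (0 to 1), transporters (0 to 2), TGF-beta and BMP (0 to 1), proliferation (0 to 2), circadian genes (1 to 2) and PPAR-alpha targets (0 to 1). Lower erythroid genes went from 2 to 1 and lower genes of glycolysis and low oxygen from 1 to 0. Among higher genes, proliferation went from 0 to 1, granulocyte and megakaryocyte markers from 0 to 1 each, circadian genes from 1 to 0 and lysosomal genes from 2 to 1. Library totals without the 50 most abundant genes as the scaling gave 12 higher junction genes in place of 7, 7 higher genes of glycolysis and low oxygen in place of 3 and 5 of TGF-beta and BMP in place of 3.

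**Figure D5:**
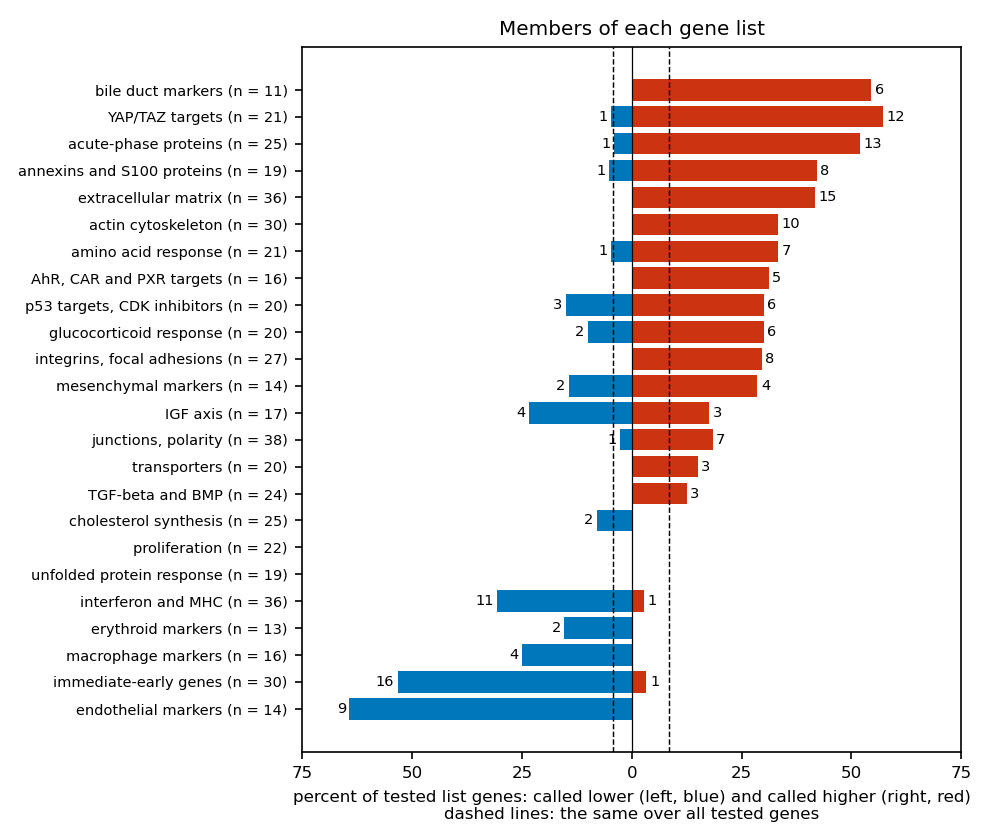
Bars give the percent of tested genes in each list that were called higher (right, red) and lower (left, blue), with the number of genes at the bar and the list size in parentheses. Dashed lines mark the same percentages over all tested genes, 8.54% higher and 4.33% lower. The lists were chosen with earlier results of these data known.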

How the data were processed

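Poly(A) RNA of 12 libraries was sequenced by the authors as strand-specific single reads. The deposited table holds raw counts of reads per gene, which the authors made by alignment with STAR 2.5.2b to GRCm38 with the Ensembl annotation. The strand setting of the counts and the treatment of reads that match several genes are not given in the sources used here. FastQC 0.11.2, Picard 2.10.2 and DESeq2 1.22.2 are also named in the submitters' processing notes. From the counts, TMM-scaled CPM and edgeR 4.0.16 quasi-likelihood fits (R 4.3.3, limma 3.58.1) were computed here over all 12 libraries with the group as the only term. Testing was limited to genes that exceeded 10 counts in a library, and p-values were adjusted over all of them by the Benjamini-Hochberg method. Fold changes were fitted with a prior count of 2, and their standard errors come from the quasi-likelihood F statistic. The script was tested on simulated counts.

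Genes named first were the 15 called protein-coding members in each direction with the largest distance from the nearer fresh group and a mean of at least 10 CPM, in culture for higher genes and in the lower fresh group for lower ones. The remaining genes come from fixed lists, of which some members are not reported here, and those shown with their values were chosen after the values were seen. The members and lists were chosen with earlier results of these data known. Motifs were searched in RefSeq promoter windows. Alternatives to scaling, filter, test and library choice were run, DESeq2 1.42.0 among them. The replicate numbers of the labels are not said to pair samples, so the main fit has no block. Counts limit precision for genes with few reads, and p-values measure only the spread between these libraries.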

Additional observations from a re-analysis of the deposited data

Results flagged for a closer look

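Levels in each library were given for 68 genes, and 207 groups of 4 libraries, total counts included, were searched for a library far from the other 3. The gap to the nearest library, divided by the range of the group, exceeded Dixon's critical value for 4 values in 27 groups. Chance alone marks about 1 in 20 groups, and the genes are not independent.

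Hepatoblast replicate 1 stood apart in 11 groups, with Nxpe2 at 48.8 CPM against 5.17 to 10.3 in the others, Alas2 at 85.3 CPM against 16 to 19.7 in the others and Cdh5 at 29.6 CPM against 8.55 to 11 in the others. It also had Abcb1b at 0.871 CPM against 0.199 to 0.299 in the others, C1qa at 20.2 CPM against 4.33 to 6.87 in the others and Cd5l at 84.9 CPM against 18.4 to 25.6 in the others. It also had Cyp2b10 at 0.355 CPM against 0.209 to 0.232 in the others, Mki67 at 1029 CPM against 474 to 533 in the others and Pfkp at 8.64 CPM against 4.02 to 4.44 in the others. It also had Slc7a11 at 2.03 CPM against 0.265 to 0.55 in the others and Trib3 at 11.9 CPM against 2.32 to 3.95 in the others. Mature hepatocyte replicate 2 stood apart in 5 groups, with Car3 at 3043 CPM against 3548 to 3649.7 in the others, Fos at 105 CPM against 197 to 213 in the others and Fosl1 at 0.193 CPM against 0.409 to 0.435 in the others. It also had Lcn2 at 19 CPM against 3.04 to 5.49 in the others and Saa1 at 789 CPM against 23.3 to 82.3 in the others. Diff. hepatocytes replicate 2 stood apart in 3 groups, with Fkbp5 at 232 CPM against 279 to 284 in the others, Pfkp at 199.6 CPM against 150.3 to 153 in the others and Sgk1 at 148 CPM against 196 to 198 in the others. Diff. hepatocytes replicate 1 stood apart in 2 groups, with Krt7 at 90.2 CPM against 20.6 to 32.4 in the others and Saa1 at 1.12 CPM against 0.296 to 0.344 in the others. Diff. hepatocytes replicate 4 stood apart in 2 groups, with Car3 at 1.38 CPM against 0.474 to 0.577 in the others and Marveld3 at 23.1 CPM against 27.5 to 28.1 in the others. Mature hepatocyte replicate 1 stood apart in 2 groups, with Krt19 at 9.33 CPM against 2.05 to 2.28 in the others and Krt7 at 1.3 CPM against 0.321 to 0.372 in the others. Mature hepatocyte replicate 3 stood apart in 2 groups, with Vmn2r3 at 0.117 CPM against 0.0621 to 0.0686 in the others and Serpinb9b at 0.0584 CPM against 0 in each of the others.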

How the results depend on the processing

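The counts of 1518 higher and 769 lower genes stayed within 1.5 times under the other scalings, without a filter beyond 1 count, with filterByExpr and with DESeq2 when the fold change was required after the test. Library totals without the 50 most abundant genes gave 1823 and 583, and moved the median log2 fold change of all genes to 0.2 from -0.009. Leaving out 1 library at a time gave 1511 to 1676 higher and 778 to 863 lower genes, and 1324 and 688 of the main calls were kept in all 12 of these fits. The separation is easier to meet with fewer libraries, and most of these totals rose. Under all 3 other scalings 1283 and 538 were kept. A filter of at least 10 counts in every sample gave 570 and 452, since it removes the genes that are silent on one side. DESeq2 with the fold change in the test gave 955 and 439, and edgeR glmTreat gave 1105 and 510. Calling by an adjusted p under 0.05 alone gave 2097 and 1615, and a separation of at least 1.5 times 929 and 416. The filter of 10 counts in every sample left 9 higher genes in place of 15 in the matrix list, 5 in place of 10 for actin, 3 in place of 6 for p53, 2 in place of 6 for the bile duct, 3 in place of 5 for drug response, 2 in place of 4 for mesenchymal markers, 1 in place of 3 for lipid droplets and 0 in place of 3 for TGF-beta and BMP. Lower genes came to 6 in place of 11 for interferon and MHC, 4 in place of 9 for endothelial markers, and 2 in place of 4 for both macrophage markers and the IGF list. Library totals gave 8 higher actin genes, 10 higher YAP/TAZ targets, 2 higher mesenchymal markers, 3 lower macrophage markers and 14 lower immediate-early genes, in place of 10, 12, 4, 4 and 16. Integrin and focal adhesion genes fell from 8 higher to 5 under glmTreat and 3 with the fold change in the DESeq2 test. Without hepatoblast and Diff. hepatocytes replicate 1 together, a choice made after seeing the data, 1701 and 956 genes were called.

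Among 203 named genes, no called log2 fold change reversed. By fold change and adjusted p alone, without the separation of the libraries, besides Itgav and Klf1 the calls of Hspa4l (without mature replicate 4) and Nuak2 (without Diff. hepatocytes replicate 2) were lost when 1 library was left out, and those of Mvk, Tm7sf2 and Nuak2 under library totals.

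With the replicate number as a block 1515 higher and 768 lower genes were called. Deviations of same-numbered hepatoblast and Diff. libraries correlated at 0.339, -0.072, 0.303 and 0.245, so the numbers were not taken to pair samples. Diff. hepatocytes replicate 2 correlated best with hepatoblast replicate 1, and the others with their own number.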
